A study of Mus musculus with 3 samples.

Results

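The integrin and laminin genes of the mouse were taken as the protein-coding genes whose symbol begins with Itga or Itgb, or with Lama, Lamb or Lamc and a number, on the mm10 (GRCm38) build. The rule gave 42 of 21887 protein-coding genes. Of these, 27 encode integrin chains, 11 encode laminin chains, and 4 are named after integrins without encoding a chain (Itgb1bp1, Itgb1bp2, Itgb3bp and Itgbl1). A deposited accessible region, called a feature here, was counted for a gene where it overlapped the gene body or the 2 kb at either side. All members but Itgb1bp2, the muscle protein melusin, had at least 1 feature, so that 41 genes with 913 of the 315694 features were measured. The rule used gene names only, though it was set with earlier results of these data known.

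The study profiled open chromatin in single nuclei with a transposase that tags accessible DNA (snATAC-seq), in GFP-positive nuclei sorted from mouse dorsal skin. The animals carried Dct-rtTA and Tre-H2B-GFP, so that doxycycline switched on a histone-GFP label in cells using the promoter of Dct, a pigment enzyme gene. All 3 conditions shared this genotype and 5 days of doxycycline (20 mg in 100 ml of drinking water). Mice were 7 weeks old by the treatment text and 8 weeks old by the sample characteristics. The UVB group was a pool of 24 mice irradiated 3 times over 1 week at 2.2 mJ/cm2, run as 2 technical replicates that were merged in the deposited matrix. The anagen group was 8 mice depilated with Nair cream to start hair growth. The telogen group was 12 mice with resting follicles, and it shared 1 library with the anagen mice. Each condition was therefore 1 sample of pooled animals, and no test between conditions was possible.

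Counting each barcode once per condition left 6553 UVB, 3753 anagen and 2042 telogen nuclei with 16182770, 10397896 and 5225945 counts. A nucleus had 1726, 1577 and 1650 counts at the median. Second copies of a barcode had made up 0.937% of UVB, 31.4% of anagen and 21.0% of telogen entries, and 506 barcodes were seen in more than 1 condition (217 in UVB and anagen, 289 in UVB and telogen). Without those barcodes the counts of members called given below became, over all nuclei, 14, 17 and 14 in place of 13, 17 and 14 in UVB against telogen, anagen against telogen and UVB against anagen, in melanocyte-like nuclei 12, 17 and 20 in place of 16, 19 and 21, and among cell classes 40 in place of 44. Counts were scaled to CPM over all counts in features. Intervals in brackets after a ratio are exact conditional binomial 95% intervals, which cover counting error only. They are too narrow, because 59.1% to 62.6% of the entries above 0 had the value 2, so that counts came in pairs.

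The sort did not give melanocytes alone. Clusters were named from fixed marker genes, with the features of the 42 genes left out of the clustering. Melanocyte-like nuclei (clusters 1, 3 and 7) made up 44.7% of UVB, 29.3% of anagen and 10.5% of telogen nuclei. Of 13 melanocyte markers, 11, 13 and 12 were at least 2-fold higher in them than in all other nuclei, and the markers' summed level was 3792 against 869 CPM in UVB, 5468 against 811 in anagen and 3514 against 612 in telogen. The 10 leading genes of clusters 1 and 3 held none of those markers, and those of cluster 7 held Oca2 and Slc24a5. Keratinocyte-like nuclei made up 22.5%, 8.45% and 21.2% of UVB, anagen and telogen nuclei, fibroblast-like nuclei 12.1%, 14.1% and 9.89%, endothelial-like nuclei 7.13%, 25.4% and 32.1%, and Schwann-like nuclei 6.87%, 2.42% and 3.48%. Cluster 6 (1.89%, 16.9% and 5.14%) matched the list of pericyte and smooth muscle markers best and is given by its number. Of those markers 9 of 10 were at 2-fold or more, and none was among its 10 leading genes. Clusters 2 and 10 (endothelial-like), 4 and 8 (keratinocyte-like), 5 and 12 (fibroblast-like) and 9 (Schwann-like) also had none of their markers there, but kept their names. Myeloid and Langerhans-like nuclei made up 2.47%, 2.08% and 5.78%. Cluster 13 (2.40%, 1.25% and 11.9%) was led by Ptprc, Fmnl1 and Cytip and held 4, 5 and 5 of 6 T cell markers at 2-fold or more in UVB, anagen and telogen, but was left without a name.

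Integrins are receptors made of an alpha and a beta chain that tie the cytoskeleton to the extracellular matrix or to other cells, and the pairing of chains sets the ligand. Laminins are trimers of an alpha, a beta and a gamma chain and form the sheet of basement membranes, to which epidermis, vessels, nerves and muscle are attached. Melanocyte stem cells sit in the hair follicle, and melanocytes of the epidermis rest on its basement membrane, where integrins hold them and guide their movement. Open chromatin at a gene marks regulatory potential and is not a measure of its transcript.

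For 27 of the 42 genes a RefSeq promoter was at hand (GRCm38.p6), and 20 of these had a feature over the start. Features are all 500 bp long, so that levels of start features can be set side by side. The promoters shown are those with the highest start features in melanocyte-like nuclei that no other gene shared (Itgb1 and Itgav) and those whose start feature, among such features with at least 50 counts, was at least 3-fold higher in UVB than in anagen (Itgb8, Itga8 and Itga1). Each line holds the 250 bases before the start, 5′ to 3′ on the gene's strand; the only searched motif in them, GGGCGG in Itgb1, is in capitals.
Itgb1, chr8:128685404-128685653, plus strand: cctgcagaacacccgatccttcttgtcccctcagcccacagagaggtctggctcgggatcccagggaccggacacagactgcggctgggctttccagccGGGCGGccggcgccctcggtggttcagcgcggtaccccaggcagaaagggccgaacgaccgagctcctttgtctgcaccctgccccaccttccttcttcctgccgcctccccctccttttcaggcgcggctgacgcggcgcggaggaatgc
Itgav, chr2:83724147-83724396, plus strand: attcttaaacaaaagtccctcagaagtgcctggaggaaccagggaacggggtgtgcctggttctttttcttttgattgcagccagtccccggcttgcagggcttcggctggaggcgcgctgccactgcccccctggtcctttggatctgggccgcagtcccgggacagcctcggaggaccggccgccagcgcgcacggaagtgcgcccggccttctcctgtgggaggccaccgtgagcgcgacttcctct
Itgb8, chr12:119238277-119238526, minus strand: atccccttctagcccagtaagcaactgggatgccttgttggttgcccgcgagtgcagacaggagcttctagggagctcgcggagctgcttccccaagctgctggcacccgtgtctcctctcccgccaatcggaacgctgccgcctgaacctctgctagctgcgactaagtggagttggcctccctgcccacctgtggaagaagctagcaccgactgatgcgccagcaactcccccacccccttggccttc
Itga8, chr2:12301945-12302194, minus strand: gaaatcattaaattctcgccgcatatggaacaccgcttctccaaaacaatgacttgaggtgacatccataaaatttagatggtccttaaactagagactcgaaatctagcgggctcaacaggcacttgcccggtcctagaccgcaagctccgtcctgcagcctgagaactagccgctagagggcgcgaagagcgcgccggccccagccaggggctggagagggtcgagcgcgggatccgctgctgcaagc
Itga1, chr13:115101965-115102214, minus strand: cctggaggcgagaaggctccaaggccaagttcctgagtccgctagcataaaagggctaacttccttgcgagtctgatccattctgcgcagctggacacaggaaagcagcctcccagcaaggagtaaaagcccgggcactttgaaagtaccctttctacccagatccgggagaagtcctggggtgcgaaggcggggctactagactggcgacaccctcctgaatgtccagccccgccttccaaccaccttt
Motifs were searched on both strands in the 250 bases. GGGCGG, the core bound by Sp1-type factors, was in 9 of the 27 promoters (33.3%) and in 42.7% of 17492 promoters of all genes. TCATGTG and TCACGTG, letters bound by MITF, were in none of the 27 and in 2.68% and 3.64% of all promoters. TGACTCA, bound by AP-1, was in 1 (Itgax) against 4.00%, and TATAAA was in none against 12.4%.

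In melanocyte-like nuclei the start feature of Itgb1, the beta chain shared by most integrins, had 64.4 CPM in UVB, 49.3 in anagen and 85.3 in telogen. The start feature of Itgav, an alpha chain of vitronectin and fibronectin receptors, had 56.8 CPM in UVB, 40.8 in anagen and 12.2 in telogen. Both stood above the start features of the other integrin and laminin chains that had one in UVB and anagen. The start feature of Itgb1bp1, shared with Cpsf3, was nearly as high, with 49.7 CPM in UVB, 46.6 in anagen and 12.2 in telogen. The telogen values of Itgav and Itgb1bp1 rested on 4 counts each. The start feature of Itgb8, a beta chain that binds latent TGF-beta, had 22.8 CPM in UVB, 3.75 in anagen and 9.14 in telogen, a UVB to anagen ratio of 6.09 (3.72 to 10.6). That of Itga8, a receptor chain for nephronectin and fibronectin, had 15.2 CPM in UVB, 3.96 in anagen and 12.2 in telogen, a ratio of 3.85 (2.34 to 6.66). That of Itga1, a collagen receptor chain, had 14.6 CPM in UVB, 4.79 in anagen and 3.05 in telogen, a ratio of 3.05 (1.92 to 5.04). These 3 starts were shown because UVB was higher than anagen there, so that direction is no result, and their telogen values came from 1 to 4 counts. Within anagen these starts were lower in cluster 7, which held most anagen melanocyte-like nuclei, than in clusters 1 and 3: Itgb8 had 2.35 CPM in cluster 7 and 14.4 in clusters 1 and 3, Itga8 had 3.30 CPM in cluster 7 and 8.98 in clusters 1 and 3 and Itga1 had 3.53 CPM in cluster 7 and 14.4 in clusters 1 and 3. The cluster values rest on 5 to 15 counts each. Between UVB and anagen nuclei of clusters 1 and 3 alone, the ratios were 1.58 (0.780 to 3.73) for Itgb8, 1.66 (0.687 to 5.23) for Itga8 and 1.04 (0.506 to 2.47) for Itga1.

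Members were called in cell classes by a rule that had to hold in all 3 conditions. Recurrence over conditions is thus set by the rule and is no result. A gene was called higher in a class where its CPM was at least 2-fold that of all other nuclei of the same condition in each of the 3 conditions, with at least 50 counts in the class. A gene was called lower by the same rule in the other direction. The minimum is set on the class itself, so in small classes mostly genes that are high there could reach it, and the share of all genes called, given beside each count, carries the same filter. The minimum was reached in at least 1 class by 37 members, of which 27 were called in 1 or more classes and 20 were called higher in 1 or more. The share of all genes called in at least 1 class was not counted, so these totals are no result about the members.

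**Figure D1:**
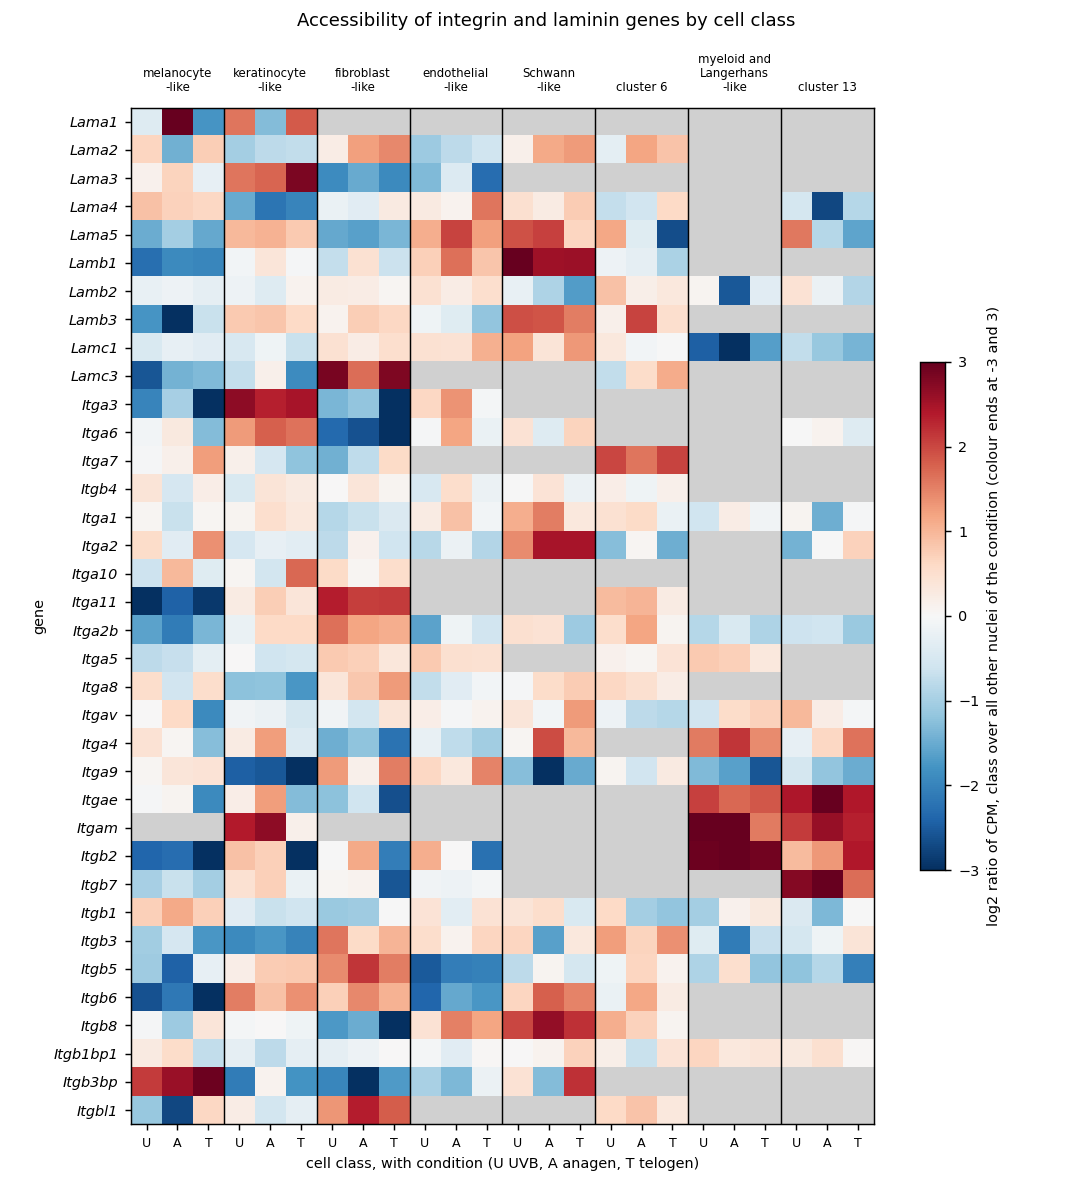
Accessibility of integrin and laminin genes by cell class. Rows are genes in order of role, columns are the classes with UVB (U), anagen (A) and telogen (T) nuclei, and the colour is the log2 ratio of CPM in the class over all other nuclei of the condition (red higher, blue lower, grey under 50 counts in the class). Itga3 is red in keratinocyte-like nuclei of all 3 conditions, at 6.47, 5.06 and 5.54 times the other nuclei, and Lamb1 is red in Schwann-like nuclei at 10.6, 5.85 and 5.95 times.

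In keratinocyte-like nuclei 3 of 37 genes with the minimum count were called higher, near the share of all genes (6.90%). They were the laminin receptor chains Itga3 and Itga6 and the laminin-332 chain Lama3. Itga3 (chr11:95044475-95076844), which pairs with the beta1 chain to bind laminin-332, had 169 against 26.1 CPM in UVB, 135 against 26.6 in anagen and 212 against 38.3 in telogen, that is 6.47-fold in UVB, 5.06-fold in anagen and 5.54-fold in telogen. Its leading feature in these nuclei, chr11:95070142-95070642 in the gene body, held 43.2% of the counts and had 85.2 against 2.53 CPM in UVB, 30.4 against 1.32 in anagen and 73.7 against 1.92 in telogen. Itga6, the alpha chain of the hemidesmosome, was higher 2.43-fold in UVB, 3.45-fold in anagen and 3.11-fold in telogen. Its leading feature in these nuclei, chr2:71786716-71787216 at a gene end, held 22.8% of the counts. That feature stood at 0.947-fold in UVB, 0.898-fold in anagen and 1.51-fold in telogen. Lama3, the alpha chain of laminin-332, was higher 3.06-fold in UVB, 3.33-fold in anagen and 7.06-fold in telogen, on few anagen nuclei (317). All 3 belong to the attachment of epidermis to its basement membrane. Of their partner chains, Lamb3 and Itgb4 did not meet the rule. Lamb3 stood at 1.73-fold in UVB, 1.77-fold in anagen and 1.51-fold in telogen, and Itgb4, the beta chain of the hemidesmosome, at 0.730-fold in UVB, 1.31-fold in anagen and 1.20-fold in telogen. Itga8, Itga9, Lama4 and Itgb3 were called lower, 4 genes against 3.02% of all genes; Lama4, a laminin chain of vessel walls, had 75.6 against 217 CPM in UVB, 47.5 against 218 in anagen and 41.3 against 162 in telogen. Keratinocyte-like nuclei of UVB and telogen came mostly from cluster 4, and 222 of the 317 anagen ones from cluster 11. Itgam, an alpha chain of myeloid cells, was not called in keratinocyte-like nuclei but had 22.2 against 4.28 CPM in UVB, 20.9 against 3.24 in anagen and 33.1 against 29.8 in telogen.

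Fibroblast-like nuclei had 5 of 35 genes called higher (5.22% of all genes). Itga11 (chr9:62677855-62783979), a collagen receptor chain of fibroblasts, had 77.1 against 15.2 CPM in UVB, 120.5 against 28.6 in anagen and 62.9 against 14.7 in telogen, and its leading feature, chr9:62694038-62694538 in the gene body, had 23.4 against 0.160 CPM in UVB, 28.0 against 4.33 in anagen and 10.9 against 0.222 in telogen. Lamc3, a gamma chain of minor laminins, was higher 7.22-fold in UVB, 3.20-fold in anagen and 7.00-fold in telogen, although 35.6% of its counts over all nuclei lay in features shared with Aif1l. Itgb5, a beta chain that joins alphaV to bind vitronectin, was higher 2.65-fold in UVB, 4.39-fold in anagen and 2.89-fold in telogen. Itgbl1, a secreted protein with repeats like those of beta chains, stood at 2.50-fold in UVB, 5.13-fold in anagen and 3.52-fold in telogen. Itga2b, the platelet chain of the fibrinogen receptor, stood at 3.14-fold in UVB, 2.27-fold in anagen and 2.13-fold in telogen, with 47.4% of its counts in 1 feature that was also open in the other nuclei (104 against 44.9 CPM in UVB, 79.5 against 43.4 in anagen and 95.7 against 55.4 in telogen). The set thus held a collagen receptor, a vitronectin receptor and a laminin chain. Called lower were 7 genes (4.91% of all genes), Itga3, Itga4, Itga6, Itgb8, Lama3, Lama5 and Itgb3bp. The 3 genes called higher in keratinocyte-like nuclei are all among them, with Itga3 at 0.389-fold in UVB, 0.440-fold in anagen and 0.0655-fold in telogen and Itga6 at 0.198-fold in UVB, 0.162-fold in anagen and 0.118-fold in telogen. Entry names carry a tag number before the # mark, which the labels do not explain, and UVB tag number 19 held 44.8% of UVB nuclei. Without it, Itga3 and Itga6 were not called lower here.

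Schwann-like nuclei, named after the glia of nerves, had 4 of 23 genes called higher (4.06% of all genes). Of 9 Schwann markers, 5, 6 and 6 were at least 2-fold higher in them in UVB, anagen and telogen. Summed melanocyte markers had 1814, 2066 and 1787 CPM in these nuclei, against 2047, 2975 and 767 in the other nuclei. In telogen 7 of the 13 melanocyte markers were at 2-fold or more there. Lamb1 (chr12:31265146-31329644), the most common beta chain of laminins, had 415 against 39.2 CPM in UVB, 295 against 50.4 in anagen and 354 against 59.6 in telogen. Its leading feature, chr12:31310643-31311143, had 139.7 against 2.70 CPM in UVB, 130.4 against 4.78 in anagen and 130.2 against 1.57 in telogen. The level of this feature in Schwann-like nuclei was nearly the same in the 3 conditions. Itga2, a collagen receptor chain, was higher 2.66-fold in UVB, 5.52-fold in anagen and 5.54-fold in telogen, Itgb8 was higher 3.98-fold in UVB, 6.23-fold in anagen and 4.60-fold in telogen, and Lamb3 was higher 3.82-fold in UVB, 3.69-fold in anagen and 2.91-fold in telogen. For Lamb3, known as a chain of epidermal laminin-332, 70.3% of the Schwann-like counts lay in 1 gene-body feature, chr1:193317069-193317569, with 117 against 8.25 CPM in UVB, 75.5 against 10.4 in anagen and 116 against 8.26 in telogen. Itga9, an alpha chain that binds tenascin C, was the gene called lower (0.459% of all genes), at 0.416, 0.0937 and 0.350 times the other nuclei.

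Endothelial-like nuclei had 1 of 29 genes called higher (4.45% of all genes), Lama5, the alpha chain of laminin-511, with 128 against 60.7 CPM in UVB, 169 against 41.4 in anagen and 169.6 against 72.6 in telogen. Its leading feature lay over the start of the gene (chr2:180225647-180226147) and had 29.2 against 10.97 CPM in UVB, 39.9 against 7.35 in anagen and 33.4 against 12.5 in telogen. Itgb5 and Itgb6 were called lower there (2 genes, 1.83% of all genes), Itgb5 at 0.175, 0.237 and 0.246 times the other nuclei. Cluster 6 had 1 of 26 genes called higher (2.33% of all genes), Itga7, a laminin receptor chain best known from muscle, at 3.99-fold in UVB, 3.04-fold in anagen and 4.06-fold in telogen. Lama4, known as a chain of vessel laminin, was called higher in neither, with 1.21-fold in UVB, 1.08-fold in anagen and 3.05-fold in telogen in endothelial-like nuclei.

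Of 8 leukocyte chains, 3 were called higher in myeloid and Langerhans-like nuclei (Itgb2, Itgam and Itgae) and 3 in cluster 13 (Itgb7, Itgae and Itgam). In the myeloid and Langerhans-like class 4 of 15 genes were called higher (6.48% of all genes). Itgb2 (chr10:77530329-77565708), the beta chain shared by leukocyte integrins, had 159 against 20.7 CPM in UVB, 252 against 23.5 in anagen and 327 against 43.6 in telogen. Itgam, the alpha chain of Mac-1, was higher 11.6-fold in UVB, 31.3-fold in anagen and 2.93-fold in telogen, and Itga4, which binds VCAM1 and fibronectin, 2.93-fold in UVB, 4.43-fold in anagen and 2.66-fold in telogen. Itgae, whose product binds E-cadherin, was higher 4.11-fold in UVB, 3.30-fold in anagen and 3.61-fold in telogen, but 56.4% of its counts over all nuclei lay in features shared with Haspin, and it was not called when those were left out. Lamc1 and Itga9 were called lower (1.27% of all genes). In cluster 13, 3 of 19 genes were called higher (4.29% of all genes): Itgb7, which pairs with alpha4 or alphaE, 6.69-fold in UVB, 10.4-fold in anagen and 3.21-fold in telogen, Itgae 5.38-fold in UVB, 8.93-fold in anagen and 5.31-fold in telogen, and Itgam 4.25-fold in UVB, 6.16-fold in anagen and 5.05-fold in telogen; 0 were called lower (0.593% of all genes). Itgb2 and Itga4 were thus called higher in the class with antigen presentation genes among its leaders, Itgb7 in the cluster led by Ptprc, and Itgae and Itgam in both. Itgb2 was not called in cluster 13, but its CPM there was above that of all nuclei in each condition. The anagen values come from 78 and 47 nuclei. The leading Itgam feature had 2 UVB and 3 anagen counts in cluster 13. In the myeloid and Langerhans-like class the leading Itgam feature had 11 UVB and 0 anagen counts, so these folds are imprecise.

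Melanocyte-like nuclei had 1 of 36 genes called higher (3.79% of all genes) and 9 called lower (5.26%). The gene called higher was Itgb3bp (chr4:99767406-99829215), which encodes a kinetochore protein and no integrin chain, with 109 against 25.5 CPM in UVB, 90.6 against 15.0 in anagen and 131 against 16.9 in telogen. One gene-body feature, chr4:99772900-99773400, held 70.2% of those counts and had 83.2 against 8.21 CPM in UVB, 54.5 against 2.15 in anagen and 97.4 against 3.47 in telogen. No integrin or laminin chain was called higher in the melanocyte-like class. The nearest were Itgb1, with 98.9 against 60.4 CPM in UVB, 143 against 64.7 in anagen and 125 against 75.8 in telogen, or 1.64-fold in UVB, 2.21-fold in anagen and 1.65-fold in telogen, and Lama4 at 1.83-fold in UVB, 1.63-fold in anagen and 1.53-fold in telogen. Summed levels of 12 keratinocyte markers in these nuclei were 222, 110.3 and 177 CPM in UVB, anagen and telogen, against 663, 312 and 701 CPM in the other nuclei. Summed levels of 9 Schwann markers in these nuclei were 812, 546 and 710 CPM in UVB, anagen and telogen, against 754, 584 and 665 CPM in the other nuclei. Anagen was lowest for both lists. Of the genes called higher in Schwann-like nuclei, Itga2, Itgb8 and Lamb3 were also lowest in anagen in melanocyte-like nuclei. Lamb1 was not, with 19.3 CPM in UVB, 21.6 in anagen and 18.3 in telogen. Itga3, Itga6 and Lama3, called higher in keratinocyte-like nuclei, were lowest in telogen. The part of either cell type in the values below was not tested. Among those called lower were the laminin chains Lama5, Lamb1 and Lamc3 and the integrin chains Itga3, Itga2b, Itga11, Itgb6 and Itgb2. Itga3 had 20.8 against 81.9 CPM in UVB, 20.8 against 41.8 in anagen and 12.2 against 96.0 in telogen. Itgb2 had 0 telogen counts in these nuclei, and its UVB and anagen values were 6.68 and 8.53 CPM.

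The minimum count was reached without a call in any class by 10 members, Itga1, Itga5, Itga10, Itgav, Itgb1, Itgb4, Lama1, Lama2, Lamb2 and Itgb1bp1. Itgav, which melanocyte-like nuclei carried on a strong start feature, stood at 1.01-fold in UVB, 1.52-fold in anagen and 0.265-fold in telogen there. Lamb2, a beta chain of vessel and synapse laminins, had 56.5 against 66.2 CPM in UVB, 85.3 against 95.1 in anagen and 76.1 against 92.1 in telogen in melanocyte-like against other nuclei, and 66.4% of its counts were in features shared with Usp19. All features of Itgb1bp1, which encodes a protein that binds the beta1 tail, were shared with Cpsf3 or Asap2. Lama2, the alpha chain of nerve and muscle laminin, differed in direction among conditions, with 1.56-fold in UVB, 0.371-fold in anagen and 1.68-fold in telogen in melanocyte-like nuclei. Itgad, Itgal, Itgax and Itgb2l were under the minimum in every class. The class calls rested mostly on features in gene bodies. With features within 1 kb of a gene end alone, 15 calls were made in the named classes and cluster 6 in place of 44. Those of Itga3, Itga6 and Lama3 in keratinocyte-like nuclei were not among them. Without UVB tag number 19, Itga6 in keratinocyte-like, Itgbl1 in fibroblast-like and Itgae in myeloid and Langerhans-like nuclei were not called higher. In the same setting 8 of 25 lower calls were lost: Itga3, Itga4, Itga6, Itgb8 and Itgb3bp in fibroblast-like, Itga8 in keratinocyte-like, and Itga9 and Lamc1 in myeloid and Langerhans-like nuclei. Without the barcodes seen in more than 1 condition, Lamb3 in Schwann-like nuclei was not called higher, and Itga3 and Lamc3 in melanocyte-like and Lamc1 in myeloid and Langerhans-like nuclei were not called lower.

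Over all nuclei the members with the lowest ratios to telogen, in UVB and in anagen, were the leukocyte chains Itgam and Itgax. A gene was called between conditions at a CPM ratio of at least 1.5, or its inverse, with at least 50 counts in both together. In UVB against telogen 13 of 39 members were called (5 higher and 8 lower), where 23.9% of all genes were called, 8.69% higher and 15.2% lower. In anagen against telogen 17 of 39 were called (8 higher and 9 lower), against 27.8% of all genes (12.2% and 15.6%). In UVB against anagen 14 of 38 were called (10 higher and 4 lower), against 22.1% (9.75% and 12.4%). The median log2 ratio of the members was 0.03 in UVB over telogen, -0.15 in anagen over telogen and -0.02 in UVB over anagen, beside -0.13, -0.11 and -0.03 for all genes. The member features together held 0.292% of UVB, 0.290% of anagen and 0.275% of telogen counts.

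All 6 leukocyte chains that reached the minimum count were called lower in UVB than in telogen, with a median log2 ratio of -1.48 beside -0.13 for all genes. Itgb2 had 23.7 CPM in UVB, 26.3 in anagen and 72.3 in telogen, a UVB to telogen ratio of 0.327 (0.283 to 0.378). Itgam had 8.22 CPM in UVB, 4.14 in anagen and 30.8 in telogen, a ratio of 0.267 (0.210 to 0.338). Itgax, the alpha chain CD11c of dendritic cells, had 1.85 CPM in UVB, 1.83 in anagen and 8.99 in telogen, a ratio of 0.206 (0.126 to 0.333). Telogen stood highest for each of these 3 genes, and UVB and anagen were close together except at Itgam. Itgal, the alpha chain of LFA-1, had 3.83 CPM in UVB, 5.19 in anagen and 9.76 in telogen, Itgae 14.2 CPM in UVB, 19.6 in anagen and 21.8 in telogen, and Itgb7 18.7 CPM in UVB, 24.0 in anagen and 35.6 in telogen. Each of these 3 was highest in telogen and lowest in UVB. In anagen against telogen 4 of the 6 were lower (Itgb2, Itgam, Itgax and Itgal), with a median of -1.19 beside -0.11. The range of Itgb2 over tag numbers with at least 50 nuclei was 2.56 to 33.8 CPM in UVB (median 14.5), 12.7 to 36.7 CPM in anagen (median 27.4) and 18.6 to 161 CPM in telogen (median 56.8), so the tag numbers of UVB and telogen overlapped. The labels do not say what tag numbers stand for, so their ranges are description only. Myeloid and Langerhans-like nuclei and cluster 13 were both most frequent in telogen (5.78% and 11.9% of nuclei). Over all nuclei a smaller share of a class and less open chromatin per nucleus cannot be told apart. The 2 other leukocyte genes, Itgad and Itgb2l, did not reach 50 counts in any comparison, and all Itgb2l features were shared with Igsf5.

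Of the 11 laminin chains 2 were called in UVB against telogen, 4 in anagen against telogen and 3 in UVB against anagen. Of all genes 23.9%, 27.8% and 22.1% were called in the same order, so the laminin counts lay near those shares. Lama1, the alpha chain of embryonic laminin-111, had 20.3 CPM in UVB, 54.8 in anagen and 19.9 in telogen, with an anagen to telogen ratio of 2.75 (2.23 to 3.43) and a UVB to anagen ratio of 0.371 (0.323 to 0.426). Lama2 had 182 CPM in UVB, 106 in anagen and 92.8 in telogen, a UVB to telogen ratio of 1.96 (1.78 to 2.16). Anagen stood apart for Lama1 and UVB for Lama2. Over tag numbers Lama2 ran from 141 to 334 CPM in UVB (median 202), 62.7 to 143 CPM in anagen (median 101) and 58.2 to 133 CPM in telogen (median 94.5), with little overlap between UVB and either of the others. Lama4 had 186 CPM in UVB, 209 in anagen and 126 in telogen and was called in anagen against telogen at 1.67 (1.53 to 1.82). Lama5 had 63.6 CPM in UVB, 57.1 in anagen and 93.8 in telogen and was called lower there at 0.609 (0.540 to 0.688); its log2 ratio was -0.71 over all nuclei and 0.20 with classes weighted equally, on the other side of 0. Lama3 had 100.2 CPM in UVB, 57.3 in anagen and 78.1 in telogen and was called in UVB against anagen at 1.75 (1.59 to 1.92). Each of these 3 alpha chains was thus called in a single comparison. Lamc3 had 29.0 CPM in UVB, 29.2 in anagen and 14.7 in telogen, with ratios of 1.97 (1.55 to 2.54) for UVB and 1.98 (1.54 to 2.58) for anagen against telogen; without UVB tag number 19 its UVB to telogen log2 ratio was -0.53 in place of 0.98. Lamc1 and the beta chains were called in no comparison. Lamc1, the gamma chain of most laminins, had 187 CPM in UVB, 279 in anagen and 204 in telogen, and Lamb1 63.0 CPM in UVB, 53.9 in anagen and 67.4 in telogen. Lamb2 had 62.4 CPM in UVB, 90.6 in anagen and 91.1 in telogen and Lamb3 50.9 CPM in UVB, 42.4 in anagen and 47.1 in telogen.

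Among laminin receptors, Itga3 had 57.6 CPM in UVB, 32.1 in anagen and 90.7 in telogen, with ratios to telogen of 0.635 (0.568 to 0.711) in UVB and 0.354 (0.307 to 0.408) in anagen. Itga6 had 78.7 CPM in UVB, 44.5 in anagen and 101 in telogen, an anagen to telogen ratio of 0.440 (0.387 to 0.499). Anagen was lowest for both, and keratinocyte-like nuclei, in which both were called higher, were also least frequent in anagen. Within keratinocyte-like nuclei Itga3 was again called lower in anagen than in telogen, at 0.635 (0.484 to 0.822), and Itga6 was not called, at 0.710 (0.541 to 0.920). Itga7 had 12.5 CPM in UVB, 21.1 in anagen and 9.76 in telogen, an anagen to telogen ratio of 2.16 (1.58 to 2.99), and cluster 6, where it was called higher, was most frequent in anagen. Itgb4, not called in any comparison, had 68.1 CPM in UVB, 57.5 in anagen and 64.7 in telogen. Of the collagen receptor chains, Itga2 had 104 CPM in UVB, 64.7 in anagen and 68.7 in telogen, with UVB higher at 1.51 (1.35 to 1.70) against telogen and 1.60 (1.46 to 1.75) against anagen. With classes weighted equally the log2 ratios of Itga2 were -0.10 and -0.12, both on the other side of 0. Itga11 had 29.4 CPM in UVB, 46.9 in anagen and 21.4 in telogen, with anagen higher than telogen at 2.19 (1.78 to 2.71). Itga1 (122 CPM in UVB, 87.1 in anagen and 98.9 in telogen) and Itga10 (7.60 CPM in UVB, 7.98 in anagen and 11.1 in telogen) were not called.

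Among the remaining receptor chains, Itgb3 (chr11:104608000-104670476), the beta chain of the vitronectin receptor, had 89.2 CPM in UVB, 167 in anagen and 87.4 in telogen, an anagen to telogen ratio of 1.91 (1.72 to 2.12) and a UVB to anagen ratio of 0.534 (0.498 to 0.573). Its tag numbers ran from 30.2 to 109.8 CPM in UVB (median 66.3), 110.2 to 196 CPM in anagen (median 152) and 57.8 to 150.3 CPM in telogen (median 78.3), and no UVB tag number reached the lowest anagen one. Itga9 had 258 CPM in UVB, 362 in anagen and 203 in telogen, with anagen higher than telogen at 1.78 (1.66 to 1.90). Itga4 had 59.5 CPM in UVB, 31.4 in anagen and 56.4 in telogen, Itgb8 62.1 CPM in UVB, 28.4 in anagen and 48.2 in telogen, Itgb5 217 CPM in UVB, 144 in anagen and 185 in telogen, and Itgb6, an epithelial partner of alphaV, 109.6 CPM in UVB, 71.4 in anagen and 94.5 in telogen. UVB was higher than anagen at all 4, by 1.89, 2.19, 1.51 and 1.54 times, though at Itgb6 not without UVB tag number 19. Itga8 had 57.2 CPM in UVB, 42.3 in anagen and 30.4 in telogen and was called in UVB against telogen at 1.88 (1.59 to 2.24), and Itga5, the fibronectin receptor chain, had 55.9 CPM in UVB, 67.6 in anagen and 85.0 in telogen and was called lower at 0.658 (0.587 to 0.739). Itgav (110.4 CPM in UVB, 130.3 in anagen and 98.7 in telogen), Itgb1 (75.7 CPM in UVB, 101 in anagen and 78.8 in telogen) and Itga2b (103 CPM in UVB, 96.4 in anagen and 106 in telogen) were called in no comparison. Of the genes that encode no chain, Itgb3bp had 58.9 CPM in UVB, 49.9 in anagen and 24.1 in telogen, higher than telogen at 2.44 (2.03 to 2.97) in UVB and 2.07 (1.70 to 2.54) in anagen, while Itgb1bp1 (50.4 CPM in UVB, 57.2 in anagen and 54.3 in telogen) and Itgbl1 (34.5 CPM in UVB, 35.3 in anagen and 24.7 in telogen) were not called.

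**Figure D2:**
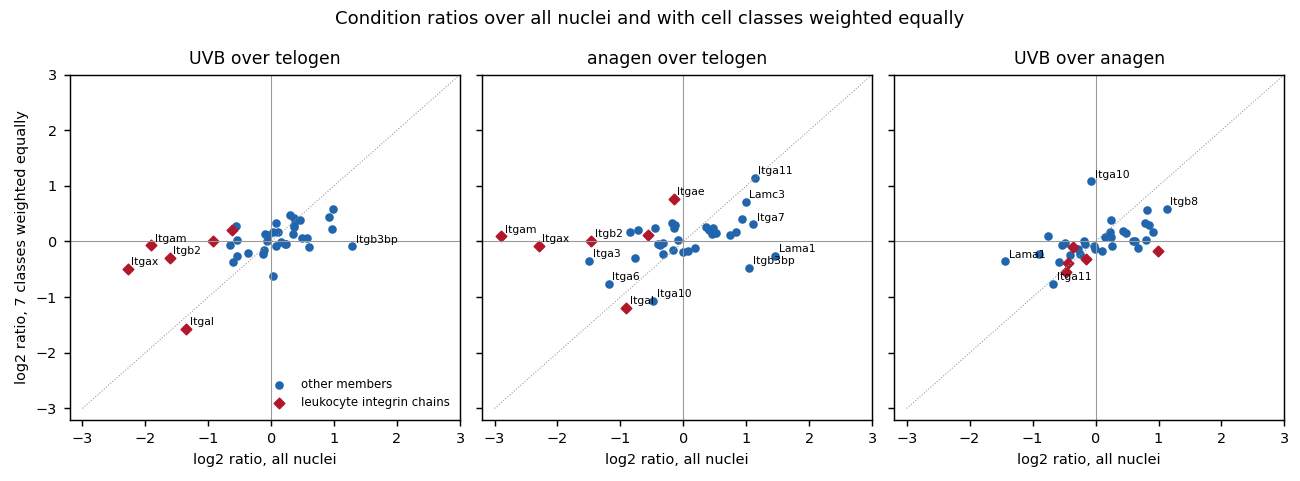
Condition ratios of the members over all nuclei (x axis, log2) and with 7 cell classes weighted equally (y axis, log2), for UVB over telogen, anagen over telogen and UVB over anagen. Each point is a gene, red diamonds are leukocyte integrin chains, and the dotted line marks equal values; Itgam in UVB over telogen lies at -1.91 on x and -0.07 on y.

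Fewer members were called with classes weighted equally. When CPM was averaged with equal weight over 7 classes, the named ones and cluster 6, with cluster 13 left out, 2 members were called in UVB against telogen (13.3% of all genes), 6 in anagen against telogen (18.1%) and 3 in UVB against anagen (17.3%), in place of 13, 17 and 14. The log2 ratio of Itgb2 in UVB against telogen was -1.61 over all nuclei and -0.30 with classes weighted equally, and that of Itgam was -1.91 over all nuclei and -0.07 with classes weighted equally. For Itgb3bp it was 1.29 over all nuclei and -0.09 with classes weighted equally, and for Lama1 in anagen against telogen 1.46 over all nuclei and -0.26 with classes weighted equally. The value of Itga11 in anagen against telogen, in contrast, was 1.13 over all nuclei and 1.15 with classes weighted equally, and that of Itga6 was -1.18 over all nuclei and -0.76 with classes weighted equally. Among the leukocyte chains the called ratios of Itgae and Itgb7 in UVB against telogen, Itgam and Itgb2 in anagen against telogen, and Itgam in UVB against anagen were on the other side of 1 under equal weights. So were the anagen to telogen ratios of Itgae and Itgb7, at log2 values of 0.76 and 0.11. Itgal, under the minimum count in every class, stayed lower. Its log2 ratio was -1.35 over all nuclei and -1.57 under equal weights in UVB against telogen. In anagen against telogen the Itgal values were -0.91 and -1.19. Within classes Itgb2 was still called lower in UVB than in telogen, at 0.486 (0.352 to 0.661) in myeloid and Langerhans-like nuclei and 0.174 (0.0740 to 0.353) in cluster 13. Itgam stood at 1.03 (0.608 to 1.72) in the myeloid and Langerhans-like class, not called, and was called lower in cluster 13 at 0.316 (0.112 to 0.726), on 6 UVB counts. The part of class make-up in the other ratios was not tested beyond this weighting.

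Within melanocyte-like nuclei the receptors and laminins split between UVB and anagen, with Lama1 and Itgb3 lower in UVB and Lama2, Itgb5 and Itgb8 higher. The class came mainly from clusters 1 and 3 in UVB and telogen (2901 and 211 nuclei) and from cluster 7 in anagen (774 of 1099 nuclei, 70.4%). Cluster 7 held 4247301 of the 4803846 anagen counts, so the anagen values are mostly those of cluster 7. The clusters thus differ between the groups for each value that follows. Of 36 members with the minimum count, 21 were called in UVB against anagen, 11 higher and 10 lower, where 38.7% of all genes were called, 16.4% higher and 22.3% lower. UVB against telogen had 16 of 32 called (31.5% of all genes), 12 higher and 4 lower, and anagen against telogen 19 of 35 (49.4%), 11 higher and 8 lower. The median log2 ratio of the members in UVB over anagen was -0.13, beside -0.03 for all genes. The telogen class was 214 nuclei with 745 counts in member features, so single telogen values are imprecise.

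**Figure D3:**
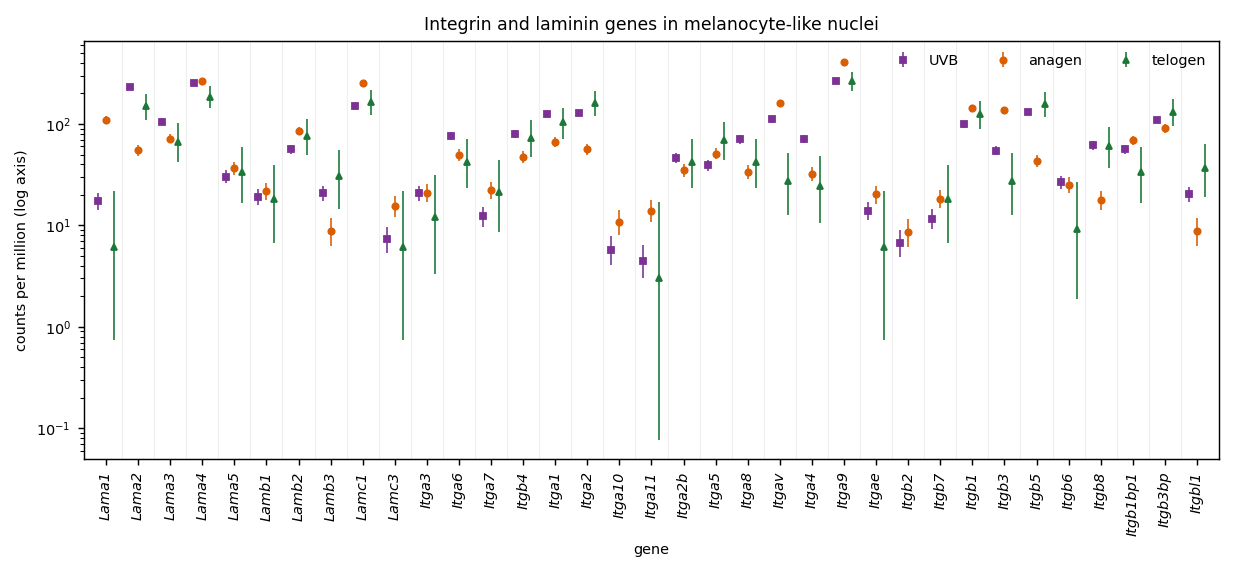
CPM of the members in melanocyte-like nuclei (log axis) with exact Poisson 95% intervals, in UVB (squares), anagen (circles) and telogen (triangles), for genes of the text with at least 50 counts over the 3 conditions; a value of 0 is not drawn. Lama1 stood at 17.2 CPM in UVB, 110.1 in anagen and 6.09 in telogen, and Lama2 at 232 CPM in UVB, 55.2 in anagen and 149 in telogen.

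Among laminin chains, Lama1 had 17.2 CPM in UVB, 110.1 in anagen and 6.09 in telogen, a UVB to anagen ratio of 0.157 (0.126 to 0.192). Lama2 had 232 CPM in UVB, 55.2 in anagen and 149 in telogen, a ratio of 4.20 (3.68 to 4.80). The 2 alpha chains thus differed in opposite directions, and telogen, on 2 counts for Lama1, lay on the side of UVB for both. Lamc1 had 152 CPM in UVB, 254 in anagen and 164 in telogen, a UVB to anagen ratio of 0.597 (0.548 to 0.650). Lamb2 had 56.5 CPM in UVB, 85.3 in anagen and 76.1 in telogen and Lamc3 7.30 CPM in UVB, 15.4 in anagen and 6.09 in telogen, with UVB 0.662 and 0.474 times anagen. Lamc1 and Lamc3 were thus both lower in UVB. Lamb3 had 20.8 CPM in UVB, 8.74 in anagen and 30.5 in telogen, with UVB 2.38 times anagen. Lama3 had 105 CPM in UVB, 71.6 in anagen and 67.0 in telogen and was called in UVB against telogen at 1.57 (1.03 to 2.52), a call that did not hold against telogen tag numbers 1 to 7. Lama4 had 256 CPM in UVB, 264 in anagen and 186 in telogen, and Lama5 and Lamb1 lay between 18.3 and 36.6 CPM in the 3 conditions. These 3 were not called in UVB against either other condition.

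Of the beta chains that pair with alphaV, Itgb3 had 54.7 CPM in UVB, 136 in anagen and 27.4 in telogen, a UVB to anagen ratio of 0.402 (0.352 to 0.458). Itgb5 had 131 CPM in UVB, 42.9 in anagen and 158 in telogen, a ratio of 3.06 (2.62 to 3.58), and Itgb8 had 61.5 CPM in UVB, 17.7 in anagen and 60.9 in telogen, a ratio of 3.48 (2.74 to 4.45). Anagen was thus highest for Itgb3 and lowest for Itgb5 and Itgb8. Their shared partner Itgav had 111 CPM in UVB, 159.7 in anagen and 27.4 in telogen, a UVB to anagen ratio of 0.693 (0.625 to 0.769) that was not called and a UVB to telogen ratio of 4.04 (2.12 to 8.87) on 9 telogen counts. Itgb6 had 26.7 CPM in UVB, 25.2 in anagen and 9.14 in telogen.

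The collagen receptor chains Itga1 and Itga2 were higher in UVB than in anagen, which Itga10 and Itga11 were not. Itga1 had 125 CPM in UVB, 66.4 in anagen and 104 in telogen, a UVB to anagen ratio of 1.88 (1.65 to 2.15). Itga2 had 128 CPM in UVB, 56.4 in anagen and 161 in telogen, a ratio of 2.27 (1.98 to 2.62). Of the Itga2 counts in these nuclei 67.7% lay in 1 gene-body feature, chr13:114838440-114838940, with 88.5 CPM in UVB, 36.0 in anagen and 107 in telogen; the same feature led the gene in Schwann-like nuclei. Of the Itga1 counts over all nuclei 54.3% lay in features shared with Pelo. Itga10 had 5.75 CPM in UVB, 10.8 in anagen and 0 in telogen, and Itga11 had 4.50 CPM in UVB, 13.9 in anagen and 3.05 in telogen, with UVB 0.531 and 0.323 times anagen on low counts.

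Itga4 and Itga9 encode related alpha chains. Itga4 had 70.8 CPM in UVB, 32.3 in anagen and 24.4 in telogen, a UVB to anagen ratio of 2.19 (1.83 to 2.65), and Itga9 had 265 CPM in UVB, 411 in anagen and 265 in telogen, a ratio of 0.644 (0.603 to 0.687). With cluster 7 left out they stood at 2.11 (1.34 to 3.54) and 1.23 (1.02 to 1.50), both above 1, and features at gene ends alone also put Itga9 above 1. Itga8 had 70.3 CPM in UVB, 33.5 in anagen and 42.6 in telogen, a ratio of 2.10 (1.75 to 2.53), and was also called against telogen, though not against telogen tag numbers 1 to 7. Of the laminin receptors, Itga6 had 75.9 CPM in UVB, 49.3 in anagen and 42.6 in telogen and Itgb4 79.7 CPM in UVB, 47.0 in anagen and 73.1 in telogen, with UVB over anagen at 1.54 (1.32 to 1.81) and 1.69 (1.45 to 1.99). These chains form the hemidesmosome integrin, and neither was called with cluster 7 left out, at 1.20 (0.850 to 1.74) for Itga6 and 0.840 (0.632 to 1.14) for Itgb4. With features at gene ends alone Itgb4 was also on the other side of 1. The keratinocyte markers were higher in UVB as well, at 222 CPM against 110.3 in anagen. Itga6 was called higher in keratinocyte-like nuclei and Itgb4 was not. Of the other genes called higher there, Lama3 stood at 1.47 times anagen in UVB melanocyte-like nuclei. Itga3, also called higher there, had 20.8 CPM in both conditions. The part of keratinocyte signal in the Itga6 and Itgb4 ratios was not tested. Itga7 had 12.3 CPM in UVB, 22.3 in anagen and 21.3 in telogen, a ratio of 0.551 (0.406 to 0.743), and Itga3 20.8 CPM in UVB, 20.8 in anagen and 12.2 in telogen, with no call against anagen. The shared chain Itgb1 had 98.9 CPM in UVB, 143 in anagen and 125 in telogen and was called in none of the 3 comparisons. Itga5 had 39.1 CPM in UVB, 51.0 in anagen and 70.0 in telogen, a UVB to telogen ratio of 0.559 (0.364 to 0.898) that did not hold against telogen tag numbers 1 to 7, and Itga2b 46.3 CPM in UVB, 35.0 in anagen and 42.6 in telogen. The leukocyte chains stayed low, Itgb7 with 11.6 CPM in UVB, 18.3 in anagen and 18.3 in telogen and Itgae with 13.98 CPM in UVB, 20.2 in anagen and 6.09 in telogen. Itgb3bp had 109 CPM in UVB, 90.6 in anagen and 131 in telogen, Itgb1bp1 56.4 CPM in UVB, 68.9 in anagen and 33.5 in telogen and Itgbl1 20.2 CPM in UVB, 8.74 in anagen and 36.5 in telogen. Of these 3 genes, Itgbl1 was called in UVB against anagen, at 2.31 (1.62 to 3.35).

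Within anagen, cluster 7 differed from clusters 1 and 3 (774 and 325 nuclei) at Lama1, Itgb3, Lama2 and Itgb5 among others: 9 members were called higher and 12 lower, with 12 not called and 9 under the minimum (23.9% and 20.8% of all genes). Lama1 had 123 CPM in cluster 7 and 10.8 in clusters 1 and 3, a ratio of 11.4 (5.21 to 31.3). Itgb3 had 148 CPM in cluster 7 and 46.7 in clusters 1 and 3, a ratio of 3.16 (2.14 to 4.88), and Itga9 had 437 CPM in cluster 7 and 212 in clusters 1 and 3, a ratio of 2.06 (1.71 to 2.51). These 3 genes, higher in cluster 7, were lower in UVB than in anagen. Lamc3 had 74 counts in cluster 7 and 0 in clusters 1 and 3. Itgb5 had 27.3 CPM in cluster 7 and 162 in clusters 1 and 3, a ratio of 0.169 (0.127 to 0.225), and Lama2 had 39.8 CPM in cluster 7 and 172 in clusters 1 and 3, a ratio of 0.231 (0.179 to 0.2995). Itgb6, Itga2, Itga1, Itgb8, Itga2b and Itgb4 were lower in cluster 7 at ratios of 0.335 to 0.428. Of the 6 named last, Itga1, Itga2, Itgb4 and Itgb8 were higher in UVB than in anagen.

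**Figure D4:**
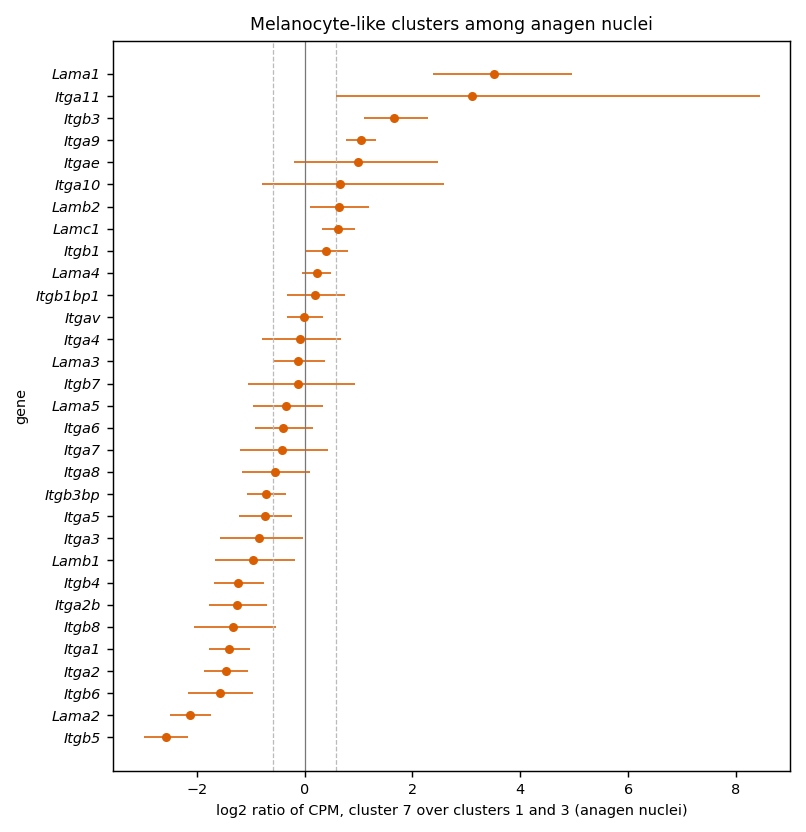
Members in melanocyte-like anagen nuclei, as the log2 ratio of CPM in cluster 7 over clusters 1 and 3 (x axis), 1 gene per row, with exact conditional binomial 95% intervals and dashed lines at 1.5-fold; Lamc3, with 0 counts in clusters 1 and 3, is not drawn. Lama1 lies at the top, at a ratio of 11.4, and Itgb5 at the bottom, at 0.169.

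With cluster 7 left out, 11 of 32 members were called in UVB against anagen, 4 higher and 7 lower (27.9% of all genes). Lama1 then stood at 1.35 (0.599 to 3.79), Lama2 at 1.36 (1.11 to 1.69), Itgb5 at 0.817 (0.656 to 1.03) and Itgb3 at 1.09 (0.733 to 1.70), none of them called. Members that were higher in UVB in the same clusters were Itga4 at 2.11 (1.34 to 3.54), Lamb3 at 2.37 (0.9897 to 7.41), Itgb8 at 1.64 (1.06 to 2.68) and Itga8 at 1.52 (1.02 to 2.35). The Lamb3 value rested on 5 anagen counts. Lower were Itga7 (0.425), Itgb6 (0.447), Itga5 (0.502), Lamb1 (0.509), Itgb7 (0.602), Itga3 (0.623) and Itga2b (0.645). Among these the interval spanned 1 for Itgb7 (0.318 to 1.26, on 11 anagen counts) and Itga3 (0.384 to 1.07, on 19), and lay below 1 for the others. The anagen nuclei of clusters 1 and 3 that these values rest on number 325. Which cells cluster 7 and clusters 1 and 3 stand for, and whether depilation or UVB set their shares, was not tested.

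Single features describe where along a gene its counts lay. Among features with at least 20 counts in melanocyte-like UVB and anagen nuclei together, 21.3% of all were at least 1.5-fold higher in UVB and 45.9% lower. Lama1 (chr17:67697127-67822645) had 9 such features, and all 9 were lower in UVB. Its feature chr17:67696919-67697419 had 7.76 CPM in UVB, 31.8 in anagen and 6.09 in telogen, and chr17:67711274-67711774 had 0.932 CPM in UVB, 19.8 in anagen and 0 in telogen. Itgb3 had 8 of 11 lower and none higher; chr11:104647117-104647617 had 9.01 CPM in UVB, 23.1 in anagen and 12.2 in telogen, and within anagen 25.9 CPM in cluster 7 and 1.80 in clusters 1 and 3, the last on 1 count. Lamc1 had 17 of 22 lower and 1 higher.

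Lama2 (chr10:26981285-27617191) had 15 of 16 features higher in UVB and none lower. The feature chr10:27511931-27512431 had 51.4 CPM in UVB, 16.2 in anagen and 27.4 in telogen, a UVB to anagen ratio of 3.17 (2.47 to 4.11). Itgb5 (chr16:33829665-33949338) had 14 of 15 higher and none lower. The feature chr16:33907700-33908200 had 27.5 CPM in UVB, 6.66 in anagen and 36.5 in telogen, a ratio of 4.13 (2.82 to 6.22), and within anagen 3.77 CPM in cluster 7 and 28.7 in clusters 1 and 3. Lama1, Itgb3, Lama2 and Itgb5 were all called between UVB and anagen on the sum of these same features. Features also entered by their counts in both conditions together, mostly through the condition where the gene is high. The shared direction of their features is thus largely set by the choice and is no separate result. Itga9 and Lama4 were mixed: Itga9 had 28 of 46 features lower and 3 higher, and Lama4 had 15 of 26 lower and 5 higher. At Lama4 the feature at a gene end, chr10:38964741-38965241, had 109 CPM in UVB, 58.7 in anagen and 91.4 in telogen, the reverse of most of its other features.

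**Figure D5:**
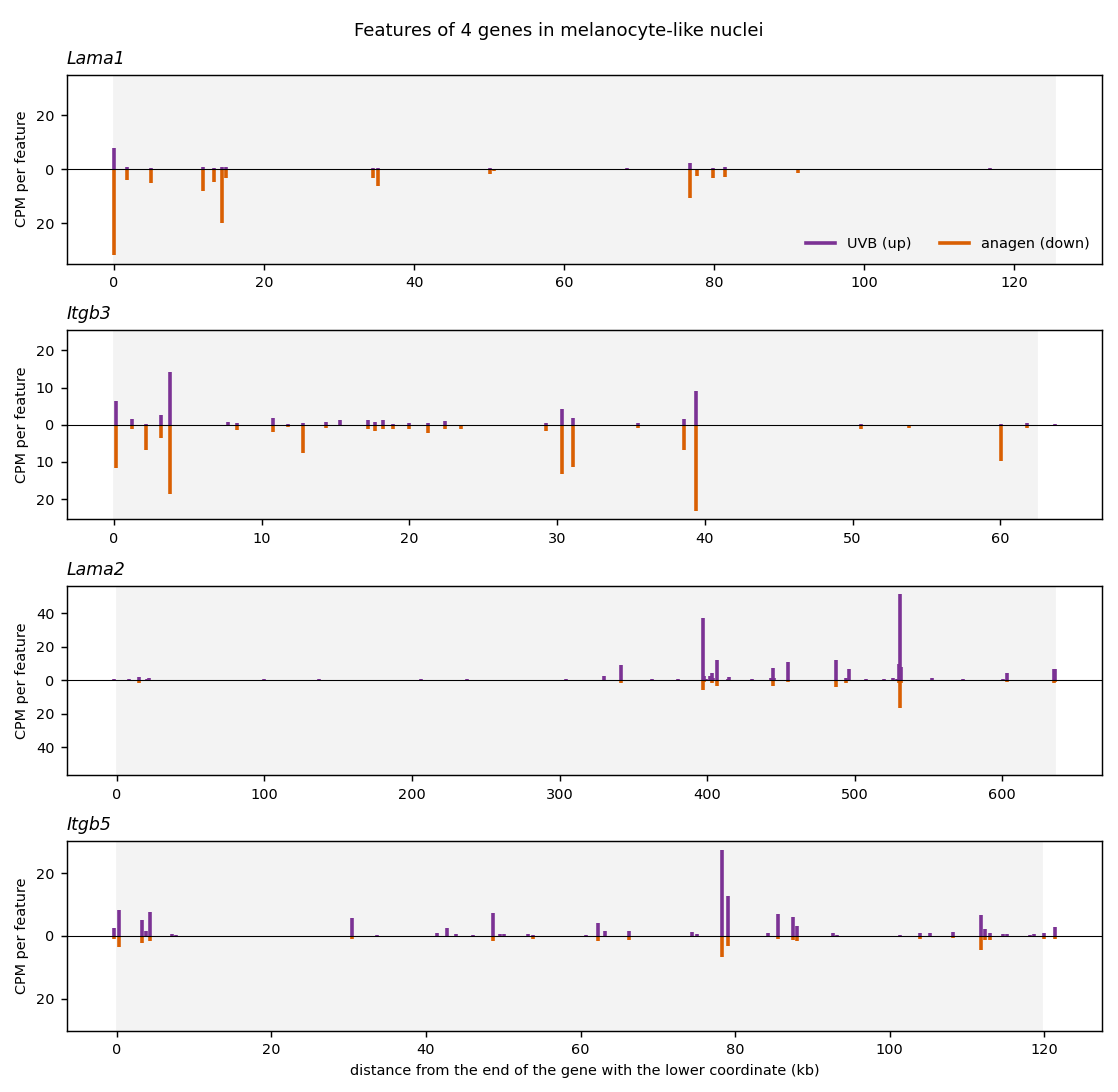
CPM per 500 bp feature in melanocyte-like nuclei along Lama1, Itgb3, Lama2 and Itgb5, with UVB drawn upward and anagen downward; the x axis is the distance from the gene end with the lower coordinate in kb, and grey marks the gene body. Anagen bars are longer along Lama1 and Itgb3, and UVB bars along Lama2 and Itgb5, with 51.4 CPM in UVB and 16.2 in anagen at the tallest Lama2 feature named in the text.

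Genes that work with integrins and laminins were counted on 3 lists chosen for their role. In melanocyte-like nuclei, UVB against anagen, 6 of the 23 focal adhesion and integrin signalling genes that reached the minimum count (of 26 listed) were higher (Cd47, Flna, Ilk, Tns1, Tns3 and Zyx) and 6 lower (Fermt2, Lims2, Parvb, Ptk2, Tln2 and Vasp), where 16.4% of all genes were higher and 22.3% lower. Their median log2 ratio was -0.15, beside -0.03 for all genes. Zyx, the focal adhesion protein zyxin, had 206 CPM in UVB and 92.8 in anagen, a ratio of 2.22 (1.99 to 2.47). Inner partners of integrins were thus called in both directions. Of 13 basement membrane and hemidesmosome partners (of 14 listed), 5 were higher (Agrn, Col4a1, Col4a2, Hspg2 and Ntn4) and 3 lower (Dst, Nid2 and Sparc), with a median of -0.13. Col4a1, a chain of the collagen of basement membranes, had 106 CPM in UVB and 41.6 in anagen, a ratio of 2.55 (2.18 to 3.01). Dst, which encodes the hemidesmosome plakin dystonin among other forms, had 256 CPM in UVB and 861 in anagen, a ratio of 0.298 (0.281 to 0.315), and Sparc, a matrix glycoprotein, had 53.4 CPM in UVB and 151 in anagen, a ratio of 0.354 (0.311 to 0.404). Of 11 other integrin ligands (of 13 listed), 4 were higher (Ccn1, Ccn2, Thbs1 and Tnc) and none lower, with a median of 0.23. Against telogen, UVB had 1 of these 11 higher (Thbs1) and 5 lower (Fn1, Madcam1, Tnc, Vcam1 and Vtn), where 18.5% of all genes were higher and 13% lower, so that Tnc was higher than in anagen and lower than in telogen. Ccn2, a matricellular growth factor, had 22.8 CPM in UVB and 4.58 in anagen, a ratio of 4.98 (3.17 to 8.20). Over all nuclei, UVB against telogen, 2 of 26 focal adhesion genes were higher (Fermt2 and Lims2) and 4 lower (Fermt3, Parvb, Parvg and Ptk2b), shares close to the 8.69% and 15.2% of all genes.

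Within the other classes the members called between conditions ran both above and below the share of all genes. Keratinocyte-like nuclei had 12 of 37 called in UVB against telogen (28.3% of all genes), 10 of 29 in anagen against telogen (35.4%) and 14 of 36 in UVB against anagen (35.4%). Lamc1 in these nuclei had 142 CPM in UVB, 254 in anagen and 144 in telogen, an anagen to telogen ratio of 1.76 (1.41 to 2.19). Fibroblast-like nuclei had 8 of 32 (21.7%), 7 of 27 (21.4%) and 11 of 34 (19%) in the same order. Itga11 had 77.1 CPM in UVB, 120.5 in anagen and 62.9 in telogen there, with anagen over telogen at 1.92 (1.39 to 2.68). Anagen was highest. Endothelial-like nuclei had 8 of 28 (20.8%), 4 of 29 (16.9%) and 4 of 26 (19.7%). Schwann-like nuclei had 10 of 23 (39.2%), 3 of 10 (28.8%) and 5 of 23 (39.6%), cluster 6 had 2 of 9 (29.9%), 9 of 26 (37.7%) and 8 of 26 (38.5%), and myeloid and Langerhans-like nuclei had 4 of 14 (28.9%), 1 of 8 (36.8%) and 3 of 5 (36.9%). In cluster 13, 9 of 15 (39.5%), 12 of 13 (51.3%) and 0 of 2 (46.9%) were called, on 157 UVB, 47 anagen and 244 telogen nuclei. Itgb2 there had 44.9 CPM in UVB, 64.0 in anagen and 257 in telogen.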

How the data were processed

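Open chromatin was measured by single-nucleus ATAC-seq in 3 pooled samples, UVB, anagen and telogen. The authors deposited 1 sparse matrix of counts per condition, with whole-number counts (1 to 4 where not 0) of nuclei by 500 bp features. The notes list MACS2, SAMtools and Bowtie2 with no version or setting, and mm10 or GRCm38 as the build, per the submitters' processing notes; how feature starts are numbered is not given in the sources used here.

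Where a barcode after its # mark was listed more than once in a condition, 1 copy was kept. Counts in features were summed over the gene body and 2 kb on either side (RefSeq, GRCm38.p6) and scaled to CPM over all features. Nuclei were clustered with Python 3.11.15 (scikit-learn 1.9.0, igraph 0.11.9, leidenalg 0.10.2) by TF-IDF, 30 components with 1 left out, 15 neighbours and Leiden at resolution 0.6 and seed 1, on 163038 features without the 913 member features. No doublet caller was run. Ratios carry exact conditional binomial 95% intervals (scipy 1.17.1). With 1 sample per condition no test was run, and "called" means past the stated fold and count minimum. Sequences come from RefSeq.

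Members called in a comparison were named, and where more than 12 were called, those with the largest folds among genes with at least 200 counts were to get full values. The members, gene lists and rules were chosen with earlier results of these data known. Alternatives for the class calls, and the removal of barcodes seen in more than 1 condition, were chosen after seeing the data. Telogen and anagen nuclei shared a library that UVB nuclei did not, so for UVB the library and the condition cannot be told apart. The values of 1 member, which is counted in the totals, are not reported here.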

Additional observations from a re-analysis of the deposited data

Results flagged for a closer look

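For 3 members the ratio of melanocyte-like over all other nuclei lay above 1 in 1 condition and below 1 in another, with 95% counting intervals on opposite sides of 1. The difference between conditions was not tested, since each condition is 1 sample. Itgav stood at 1.52 (1.36 to 1.69) in anagen and at 0.265 (0.120 to 0.507) in telogen, the telogen value on 9 counts. Lama2 stood at 1.56 (1.45 to 1.67) in UVB and at 0.371 (0.322 to 0.426) in anagen, and it stood at 1.68 (1.22 to 2.26) in telogen. Itga10 stood at 0.651 (0.430 to 0.967) in UVB and at 1.95 (1.23 to 3.15) in anagen, on 37 and 52 counts. The melanocyte-like nuclei came mainly from cluster 7 in anagen and from clusters 1 and 3 in UVB and telogen. Among anagen nuclei, Lama2 had 39.8 CPM in cluster 7 and 172 CPM in clusters 1 and 3, Itgav had 159.6 and 159.9 CPM in the same order, and Itga10 had 11.3 and 7.19 CPM, the last on 4 counts.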

How the results depend on the processing

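Each condition is 1 sample, and telogen melanocyte-like nuclei number 214, so all values describe these libraries and depth limits the telogen ones. No paired analysis was possible because each condition has 1 sample, and leaving out a replicate was not possible either. Counts of members called that moved by more than 1.5 times were as follows. Over all nuclei, in the order UVB over telogen, anagen over telogen and UVB over anagen, 13, 17 and 14 calls became 5, 9 and 2 at 2-fold and 2, 6 and 3 with classes weighted equally, and anagen over telogen gave 11 against telogen tag numbers 8 to 10. In melanocyte-like nuclei 16, 19 and 21 calls became 6, 9 and 13 with features at gene ends. UVB over telogen gave 10 with binary counts, 9 at a minimum of 200 counts and 5 at 2-fold. Anagen over telogen gave 11 at 200 counts, 11 without very deep nuclei, 2 without cluster 7 and 10 with nuclei thinned to 800 counts. UVB over anagen gave 12 at 2-fold, 11 without cluster 7 and 13 thinned. The 44 class calls became 15 with gene ends.

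Of the values of single members under the alternatives, 581 stayed close to the value reported, 179 moved and 35 lay on the other side of 0 on the log2 scale. With classes weighted equally these were, in UVB over telogen, Itgb3bp at -0.088, Itga2 at -0.10, Itgae at 0.21 and Itgb7 at 0.017, in anagen over telogen Itga4 at 0.16, Itgam at 0.10, Itgb2 at 0.017, Itgb3bp at -0.47 and Lama1 at -0.26, and in UVB over anagen Itga2 at -0.12 and Itga7 at 0.11. Of the called members outside that count, equal weights also put Lama5 in anagen over telogen at 0.20 and Itgam in UVB over anagen at -0.16 on the other side. Without UVB tag number 19 they were Lamc3 in UVB over telogen at -0.53 and Itgb6 in UVB over anagen at -0.042. With gene ends alone they were, in UVB over anagen, Itga3 at -0.088 and Itgb6 at -0.90 over all nuclei and Itga9 at 0.58 and Itgb4 at -0.15 in melanocyte-like nuclei, and in anagen over telogen in melanocyte-like nuclei Itga9 at -0.13 and Lamc1 at -0.10. The remaining ones are in melanocyte-like nuclei. Without cluster 7, UVB over anagen gave Lama1 at 0.44, Itgb3 at 0.13, Itga9 at 0.30, Itgb5 at -0.29, Itgb4 at -0.25 and Itga1 at -0.23, and anagen over telogen gave Lama2 at 0.20, Itgb4 at 0.34, Itga1 at 0.56 and Itga9 at -0.29. Against telogen tag numbers 1 to 7, UVB gave Itga5 at 0.048, Itga8 at -0.11 and Lama3 at -0.11, and anagen gave Itgb4 at 0.31. Anagen over telogen gave Itga1 at 0.43 against tag numbers 8 to 10 and at 0.033 with thinned nuclei. The cause was not tested.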
